A study of Mus musculus with 8 samples.

Results

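The 10 genes described here mark the epithelium of the tooth and were followed through 8 libraries of dental pulp RNA. They were *Cdh1*, *Epcam*, *Krt5*, *Krt14*, *Krt17*, *Itgb6*, *Trp63*, *Sp6*, *Perp* and *Cd24a*, chosen by name and matched to the table by Ensembl identifier without its version. Of these 10 genes, 9 were among the 12148 genes of the table. Positions of genes are those of GENCODE M21 on GRCm38. *Itgb6*, the beta subunit of an epithelial integrin, was not among them and was not analysed here.

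The pulp came from first molars of C57BL/6J mice at postnatal day 7 (P7). Control mice carried Osterix-Cre, a Cre recombinase under the Osterix promoter, and gave 4 libraries (numbered 49 to 52). *Tgfbr2cko* mice had the genotype Osterix-Cre:Tgfbr2f/f, that is, the same recombinase together with *Tgfbr2* flanked by loxP sites, and gave the other 4 (53 to 56). Osterix-Cre is active in the dental mesenchyme, including odontoblasts, so the deletion is not aimed at epithelial cells, and both genotypes carry the transgene. Pulp was taken out of the enamel organ and mineralized tissue, and each preparation pooled a left with a right molar. How much enamel organ stayed with the pulp is not given. No source used here says whether the libraries of a genotype came from separate animals, so the p-values measure the spread between these libraries, which may be technical. In a bulk sample, fewer cells of a type and less RNA per cell cannot be told apart.

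A molar at this age is built by 2 tissues that face each other across a basement membrane. The dental mesenchyme forms the pulp and the odontoblasts that lay down dentin. The dental epithelium forms the enamel organ, whose basal and progenitor cells hold keratin filaments made of the type II keratin *Krt5* and the type I keratins *Krt14* and *Krt17*, stick together through E-cadherin (*Cdh1*) and are governed by the transcription factor p63 (*Trp63*). Ameloblasts, the enamel-forming cells of that epithelium, secrete amelogenin (*Amelx*) and ameloblastin (*Ambn*).

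Values are log2 CPM, that is, log2 of the reads of a gene scaled to a common library total, and each library rests on 8682872 to 13539670 reads, so 1 read is worth 0.0739 to 0.115 CPM. The targeted gene *Tgfbr2*, the type II receptor of TGF-beta, had log2 CPM of 7.16, 7.62, 7.64 and 7.52 in libraries 49 to 52 and 7.02, 7.00, 7.16 and 7.61 in libraries 53 to 56. The libraries labelled *Tgfbr2cko* 55 and 56 thus lay inside the control range for the deleted gene, library 55 level with the lowest control and library 56 near the highest. The log2 fold change of *Tgfbr2* was -0.29 ± 0.17 (SE), and it was -0.42 without library 56. These values count reads of the whole gene in bulk tissue, including cells without Cre activity, and so do not measure the deletion. Library 56 stood apart for the epithelial genes, and the genotype difference of each member is given with and without it. Relative to the median of the other 7 libraries, the median of all genes in library 56 was lower by a log2 difference of -0.27, and the members' differences stand against that shift.

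Per length of exon, *Krt14* and *Krt17* had the highest mean levels of the 9 members. *Krt14* (ENSMUSG00000045545.8, chr11:100203162-100207548), the type I keratin of basal epithelial cells, had log2 CPM of 7.64, 7.01, 7.57 and 7.18 in control libraries and 7.06, 7.57, 8.95 and 10.61 in mutant libraries. *Krt5* (ENSMUSG00000061527.6, chr15:101707070-101712898), its type II filament partner, had 6.99, 6.22, 6.85 and 6.54 in control libraries and 6.36, 6.80, 8.34 and 9.96 in mutant libraries. Libraries 53 and 54 lay within the control range of both genes, and libraries 55 and 56 lay above it. The mean of *Krt14* was 7.35 ± 0.30 (SD, n = 4) in control and 8.55 ± 1.59 (SD, n = 4) in mutant libraries, a log2 fold change of 1.20 ± 0.56 (SE). The limma-trend adjusted p was 0.607, adjusted over all genes by the Benjamini-Hochberg method, and the exact permutation p was 0.257. For *Krt5* the log2 fold change was 1.21 ± 0.58 (SE), with an adjusted p of 0.615 and an exact permutation p of 0.286. Neither gene passed the study's threshold for an altered transcript, which is a p under 0.05 with a change of at least 1.5-fold. The study does not say whether that p was adjusted, and the unadjusted limma p was used here. Without library 56 the log2 fold changes fell to 0.51 for *Krt14* and 0.52 for *Krt5*.

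*Krt17* (ENSMUSG00000035557.9, chr11:100256217-100261029), a type I keratin of epithelial appendages and of stressed or proliferating epithelium, had the largest fold change of the 9 members. Its log2 CPM were 7.13, 6.51, 6.87 and 6.42 in control libraries and 6.83, 7.54, 8.74 and 10.52 in mutant libraries. Library 53 lay among the controls and the other 3 mutant libraries lay above all of them. *Krt17* passed the threshold for an altered transcript, with a log2 fold change of 1.67 ± 0.57 (SE), or 3.19-fold, although the adjusted p was 0.287 and the exact permutation p was 0.0857. Its log2 fold change ran from 0.97, without library 56, to 2.20 in the 8 fits that left out 1 library, and it remained altered in each of them. The longest protein-coding transcripts of *Krt14* and *Krt17* are identical over 70.2% of their alignment and share an unbroken run of at most 71 bases. The related genes *Krt16*, *Krt42*, *Krt15*, *Krt6a* and *Krt6b* were not in the table, and how the counting treated reads that match several keratins is not given in the sources used here.

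**Figure D1:**
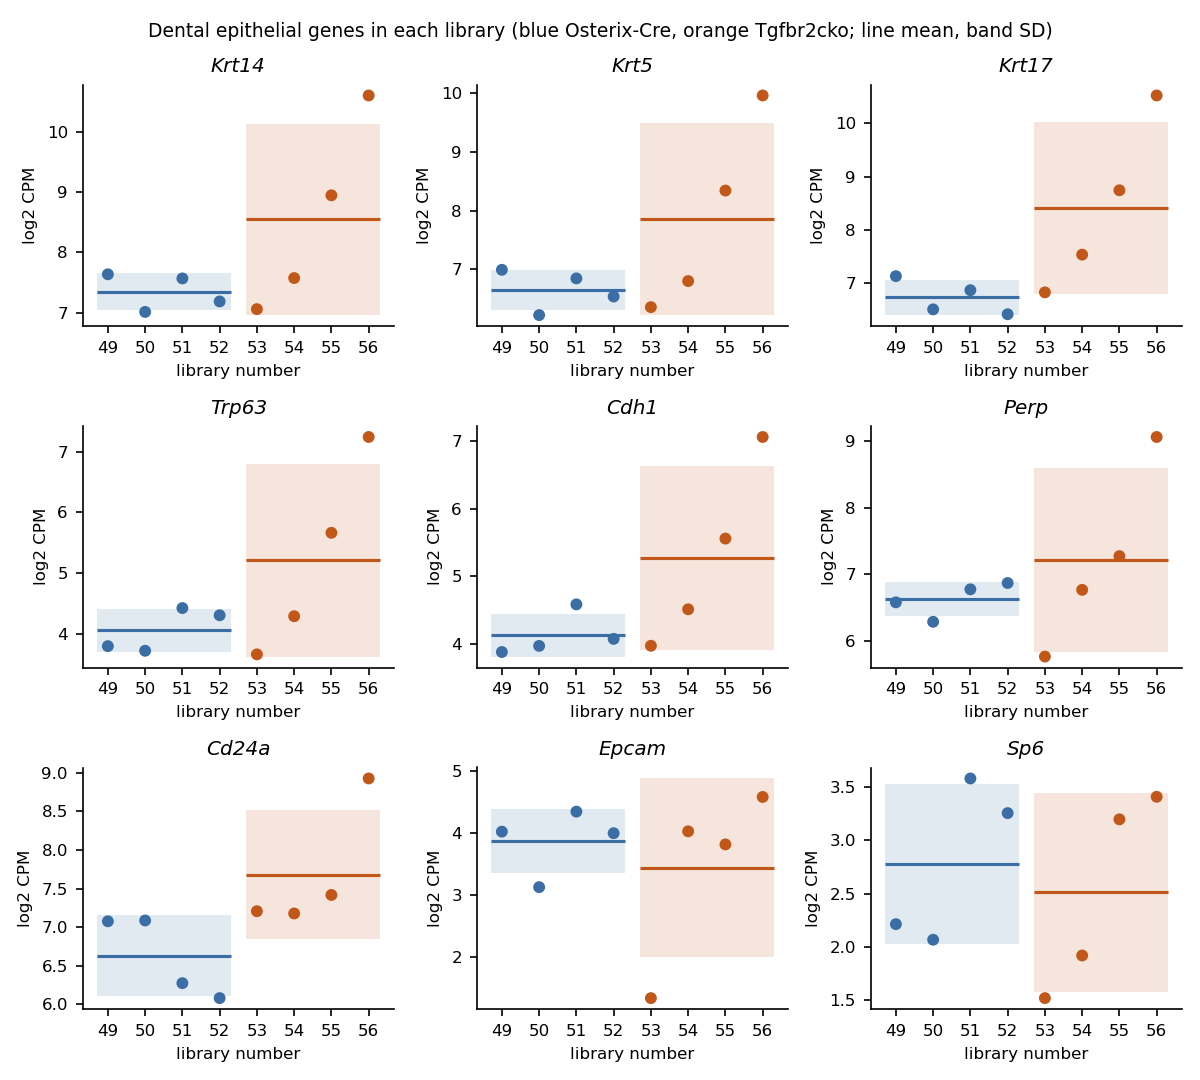
Log2 CPM (vertical axes, a separate scale for each gene) of the 9 epithelial genes in the 8 libraries (horizontal axes), with Osterix-Cre in blue and *Tgfbr2cko* in orange. Lines are genotype means and bands are 1 SD on each side (n = 4); library 56 is the highest of the 8 for 8 of the 9 genes, and only the points of *Cd24a* do not overlap between genotypes.

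*Trp63* (ENSMUSG00000022510.14, chr16:25683763-25892102) encodes p63, the master regulator of stratified and dental epithelium. Its log2 CPM were 3.80, 3.72, 4.43 and 4.31 in control libraries and 3.66, 4.29, 5.66 and 7.24 in mutant libraries. As with *Krt14*, only libraries 55 and 56 lay above the controls. The log2 fold change was 1.15 ± 0.57 (SE), with an adjusted p of 0.650 and an exact permutation p of 0.343, and it was 0.48 without library 56.

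Promoters of the members are shown because *Krt5* is the member whose level tracked *Krt14* most closely and *Epcam* is one that did not. The RefSeq table used here (GRCm38.p6) held windows from 250 bases before to 50 bases after a transcription start for 3 of the 9 genes; that of *Krt14* lies inside the annotated gene, away from its annotated start, and is not printed. *Krt5* is given from chr15:101712856-101713155 on the minus strand and *Epcam* from chr17:87635729-87636028 on the plus strand. Each window was searched on both strands for the letters TATAAA, the core of the TATA box. It was searched likewise for the letters GGGCGG, known as the GC box, and for the half-site of the p53 family, to which p63 belongs. Capitals mark every match, and the matches do not overlap.
Krt5: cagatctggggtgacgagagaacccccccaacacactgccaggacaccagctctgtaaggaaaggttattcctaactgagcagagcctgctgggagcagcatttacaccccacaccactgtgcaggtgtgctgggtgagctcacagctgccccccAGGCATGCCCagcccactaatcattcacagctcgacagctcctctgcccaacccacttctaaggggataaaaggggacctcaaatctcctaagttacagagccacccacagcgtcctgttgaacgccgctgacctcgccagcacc
Epcam: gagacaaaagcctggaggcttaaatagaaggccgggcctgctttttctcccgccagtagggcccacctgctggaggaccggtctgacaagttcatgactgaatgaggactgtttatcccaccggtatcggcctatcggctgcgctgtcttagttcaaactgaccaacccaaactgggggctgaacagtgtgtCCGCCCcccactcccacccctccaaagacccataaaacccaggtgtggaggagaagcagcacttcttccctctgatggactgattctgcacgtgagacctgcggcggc
The *Krt5* window held 1 p53-family half-site, AGGCATGCCC, which begins 95 bases before the start, and 8.36% of all 32544 promoter windows searched held such a half-site. The *Epcam* window held 1 GC box on the reverse strand, written CCGCCC, which begins 58 bases before the start and is of a kind found in 35.9% of windows. TATAAA, present in 13.6% of windows, was in neither. A match is a description of letters and says nothing of binding in these cells.

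*Sp6* (ENSMUSG00000038560.7, chr11:97013394-97024734), also called epiprofin, is a transcription factor needed for ameloblast differentiation. It was the least abundant member, with 25 to 143 reads per library. Its log2 CPM were 2.21, 2.07, 3.58 and 3.25 in control libraries and 1.52, 1.92, 3.19 and 3.41 in mutant libraries, so the genotypes overlapped. The log2 fold change was -0.27 (95% interval -1.25 to 0.72) and the exact permutation p was 0.571. It was -0.57 without library 56 and 0.06 without library 53. Of the 3841 exon bases of *Sp6*, 86.7% are covered on the other strand by exons of the transcript *Gm11532*. The library kit does not mark strand, so reads from the 2 genes cannot be told apart and the level of *Sp6* is uncertain. *Gm11532* itself had 26 to 68 reads per library and a log2 fold change of 0.00 ± 0.29 (SE).

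Among the adhesion genes, *Cdh1* was called altered and *Epcam* and *Perp* were not. *Cdh1* (ENSMUSG00000000303.12, chr8:106603351-106670246), the E-cadherin of epithelial adherens junctions, had log2 CPM of 3.88, 3.97, 4.59 and 4.08 in control libraries and 3.97, 4.51, 5.56 and 7.06 in mutant libraries. Libraries 53 and 54 lay within the control range and libraries 55 and 56 above it. *Cdh1* passed the threshold with a log2 fold change of 1.15 ± 0.50 (SE), or 2.22-fold, with an adjusted p of 0.527 and an exact permutation p of 0.171. The call did not survive without library 56, where the log2 fold change was 0.55, nor in 4 other fits that left out 1 library.

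*Perp* (ENSMUSG00000019851.8, chr10:18845020-18857073), a desmosome component and a target of p63, had log2 CPM of 6.58, 6.29, 6.78 and 6.87 in control libraries and 5.76, 6.77, 7.28 and 9.07 in mutant libraries. Library 53 lay below all controls and libraries 55 and 56 above them. The log2 fold change of 0.59 ± 0.49 (SE) had an exact permutation p of 0.571 and turned to -0.026 without library 56.

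*Epcam* (ENSMUSG00000045394.8, chr17:87635979-87651129), a cell surface adhesion protein of simple and embryonic epithelia, had log2 CPM of 4.02, 3.13, 4.35 and 4.0 in control libraries and 1.34, 4.03, 3.82 and 4.58 in mutant libraries. Library 53, with 22 reads against 84 to 324 in the others, was lowest. Library 56 was only 1.5-fold above the median of the other 7 for *Epcam*, against 8.27-fold for *Krt14*. The log2 fold change was -0.43 (95% interval -1.61 to 0.75), with an exact permutation p of 0.800, and it turned to 0.27 without library 53. Without library 56 it was -0.81.

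*Cd24a* (ENSMUSG00000047139.9, chr10:43578284-43584265), a small glycosylated surface protein used to sort dental epithelial and other progenitor cells and also made by blood and nerve cells, was the member whose genotypes were separate. Its log2 CPM were 7.08, 7.09, 6.27 and 6.08 in control libraries and 7.21, 7.18, 7.42 and 8.93 in mutant libraries. Every mutant library lay above every control library, although the gap between library 54 and the control libraries 49 and 50 was narrow. *Cd24a* passed the threshold with a log2 fold change of 1.05 ± 0.36 (SE), or 2.08-fold, at an adjusted p of 0.281. The exact permutation p was 0.0286, the smallest that the 70 arrangements of 4 against 4 libraries allow. Without library 56 the log2 fold change was 0.64, and *Cd24a* remained altered in all 8 fits that left out 1 library.

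Counted over the members, 3 of the 9 genes were altered by the study's thresholds, all higher in mutant libraries (*Cd24a*, *Cdh1* and *Krt17*), and 6 were not. Of all genes, 5.77% were altered in either direction and 2.12% were altered and higher in mutant libraries. No member passed an adjusted p under 0.05 in the limma-trend fit, where 3 had an unadjusted p under 0.05, and 0.947% of all genes passed the adjusted threshold. The genotypes did not overlap for 1 of the 9 members, *Cd24a*, against 5.27% of all genes in either direction and 2.13% with the mutants higher. Without library 56, 2 of the 9 were altered, *Cd24a* and *Krt17*, both higher, against 5.3% of all genes in either direction and 2.49% higher in that fit. It was 7 of the 9 without library 53 and 6 without library 54, against 7.80% and 6.34% of all genes. The median log2 fold change of the members was 1.15 with all libraries and 0.51 without library 56, and that of all genes was -0.01 and 0.07.

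**Figure D2:**
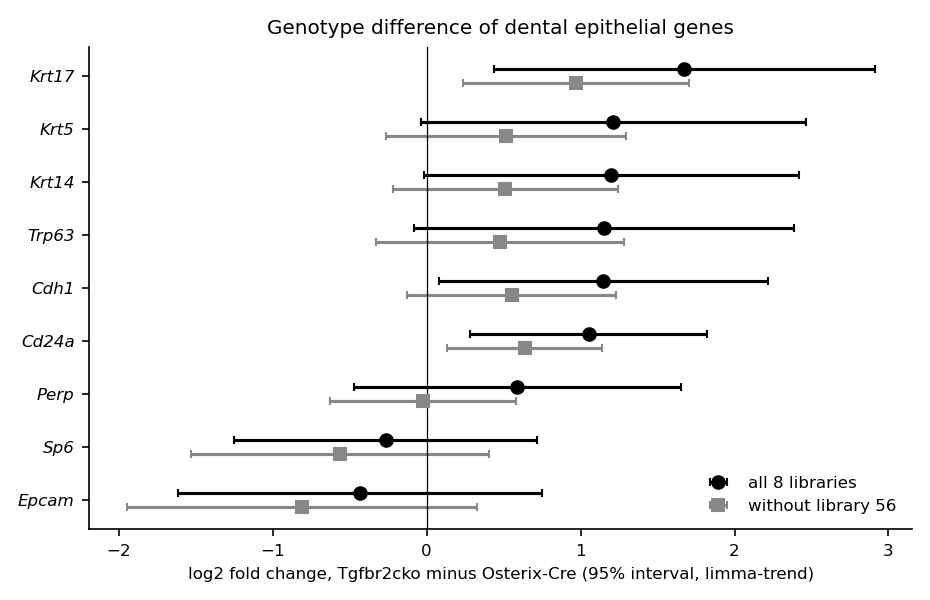
Log2 fold change of the 9 epithelial genes (*Tgfbr2cko* minus Osterix-Cre, horizontal axis) with 95% intervals from limma-trend, with all 8 libraries (black circles) and without library 56 (grey squares). The intervals of *Krt17* and *Cd24a* lie above 0 in both fits, that of *Cdh1* only with all libraries, and every estimate is lower without library 56.

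The members varied more among the mutant libraries than among the controls, by margins that differed from gene to gene. *Krt14* spanned 1.54-fold over the 4 controls and 11.8-fold over the 4 mutants, and *Krt17* spanned 1.64-fold and 12.9-fold. The contrast was smaller for *Sp6*, with 2.84-fold and 3.69-fold, and for *Cd24a*, with 2.01-fold and 3.36-fold. The SD was larger in mutant libraries for all 9 members, against 59.1% of all genes. Without library 56 it was larger for 8, against 43.0% of all genes, and *Cd24a* had 0.53 in control and 0.13 in the 3 mutant libraries left. Without library 53 it was also larger for 8, all but *Epcam*, against 52.8% of all genes. The range over the 8 libraries was in the top 10% of all genes for all 9 members, from a log2 range of 2.05 for *Sp6* to 4.10 for *Krt17*, where the median gene had 0.84. Without library 56 the log2 ranges of the 7 members other than *Epcam* and *Sp6* fell to between 1.34 for *Cd24a* and 2.32 for *Krt17*, with 1.94 for *Krt14*, 1.68 for *Cdh1* and 1.51 for *Perp*, and the median gene had 0.72. Without library 53 that of *Epcam* went from 3.24 to 1.45. In each of these settings 8 of the 9 members were in the top 10%, all but *Cd24a* without library 56 and all but *Epcam* without library 53.

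The libraries ranked alike for most members. In all, 7 of the 9 genes had their mutant values in the order 53, 54, 55, 56 from lowest to highest, an order found in 3.16% of all genes. The exceptions were *Epcam*, in which library 54 exceeded library 55, and *Cd24a*, in which library 53 exceeded library 54. Library 55 exceeded all 4 controls in 7 of the 9, against 19.2% of all genes. Library 56 was the highest of the 8 libraries for every member but *Sp6*, against 6.84% of all genes, and its excess over the median of the other 7 reached 12.6-fold for *Krt17*. Libraries 53 and 56 carry the same number in their titles, as do libraries 54 and 55, and libraries 49 and 50. The meaning of these numbers is not given in the sources used here. Libraries 53 and 56 held the lowest and the highest mean of the members, with mean log2 CPM of 4.86 and 7.93.

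As a share of the reads of a library, the 9 members together took 0.0746%, 0.0550%, 0.0686% and 0.0570% in control libraries. They took 0.0564%, 0.0804%, 0.169% and 0.537% in mutant libraries. Wilson 95% intervals for these shares were narrow, for example 0.0549% to 0.0580% in library 53 and 0.533% to 0.541% in library 56, and they cover counting error only, since amplified reads without molecular identifiers are not independent molecules. The intervals of the mutant libraries did not overlap, but they leave out error from amplification and from preparing the libraries. Libraries 53 and 50 took nearly the same share.

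Taken as a ratio to *Krt14* within a library, which removes whatever scales all epithelial transcripts alike, the members fell into those that kept step and those that did not. *Krt5* kept step most closely. Its log2 ratio to *Krt14* was -0.64, -0.79, -0.72 and -0.64 in control libraries and -0.70, -0.77, -0.61 and -0.66 in mutant libraries, although *Krt5* itself spanned 13.3-fold. The SD of that ratio over the 8 libraries, 0.064, was the smallest of the 12147 other genes in the table. Next to *Krt5*, a list drawn after the values were seen, came, among others, the transcription factor *Pitx1* and the keratinocyte protein *Sfn*, with SDs of 0.26 and 0.27, and *Trp63*, *Krt17* and *Cdh1* with 0.27, 0.28 and 0.28. The median gene had an SD of 1.36.

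*Krt17* was at a higher ratio to *Krt14* in every mutant library than in any control. Its log2 ratio to *Krt14* was -0.50, -0.50, -0.70 and -0.77 in control libraries and -0.23, -0.04, -0.21 and -0.10 in mutant libraries. The difference of the means was 0.47, which is 1.39-fold, with an exact permutation p of 0.0286, the smallest the design allows. It was 0.46 without library 56 and 0.46 with *Krt5* in place of *Krt14*. Library 53, whose *Krt14* lay in the control range, took part in the difference as the others did. This comparison was made after the values were seen. Of the 36 ratios between pairs of members 9 did not overlap between genotypes. Of these, 5 were with *Krt17* and 5 with *Sp6*, counting the pair of these 2 genes in each. The ratios share genes, so the 9 are not separate results, and the share among all pairs of genes was not determined. The smallest Benjamini-Hochberg adjusted p over the 36 ratios was 0.114, so none passed the correction.

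*Sp6* was at a lower ratio to *Krt14* in every mutant library than in any control, and *Epcam* in 3 of the 4. The log2 ratio of *Sp6* to *Krt14* was -5.42, -4.94, -3.99 and -3.93 in control libraries and -5.53, -5.65, -5.76 and -7.21 in mutant libraries, without overlap, with a difference of -1.47 and an exact permutation p of 0.0286. The gap between library 49, with 45 reads of *Sp6*, and library 53, with 25, was narrow. The overlap with *Gm11532* bears on this ratio as it does on the level. For *Epcam* the log2 ratio was between -3.88 and -3.19 in control libraries and -5.71, -3.55, -5.13 and -6.03 in mutant libraries, where library 54 lay among the controls and the exact permutation p was 0.0857. *Perp* had a difference of -0.61 with an exact permutation p of 0.0571. Of all genes, 2.31% had a ratio to *Krt14* that did not overlap between genotypes, and 2 of the 8 other members did.

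**Figure D3:**
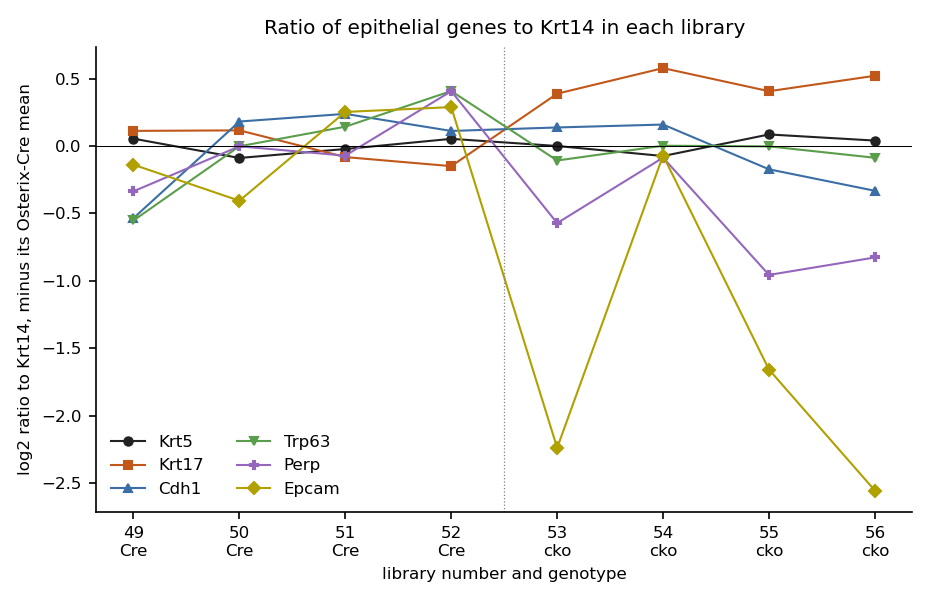
Log2 ratio of 6 epithelial genes to *Krt14* within each library, minus the mean of that ratio in the Osterix-Cre libraries (vertical axis), by library number and genotype (horizontal axis); the lines only join the points of a gene. *Krt5* stays within 0.1 of 0 throughout, *Krt17* lies higher in all 4 *Tgfbr2cko* libraries, and *Epcam* lies far lower in libraries 53, 55 and 56.

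Per length of exon, the order of the levels from high to low was *Krt14*, *Krt17*, *Krt5*, *Perp*, *Cd24a*, *Epcam*, *Cdh1*, *Trp63* and *Sp6*. Levels were taken as the mean log2 RPKM (CPM per kilobase of exon) over the 8 libraries and ran from 7.14 for *Krt14* to 0.69 for *Sp6*. Neighbours in this order were compared within libraries by a two-sided exact sign-flip permutation test. The order, and so the pairs, came from these same 8 libraries, so the p-values describe its steadiness and are no independent test of it. *Krt17* exceeded *Krt5*, *Cd24a* exceeded *Epcam* and *Cdh1* exceeded *Trp63* in all 8 libraries, each with an exact p of 0.00781, the smallest possible, and a Benjamini-Hochberg adjusted p of 0.0208 over the 8 pairs. *Trp63* and *Sp6* had an exact p of 0.0313 (adjusted 0.0625). The other neighbours did not pass the test over the 8 libraries. *Krt14* exceeded *Krt17* in 4 of 4 control and 2 of 4 mutant libraries. *Epcam* exceeded *Cdh1* in 4 of 4 control libraries and 1 of 4 mutant libraries. *Krt5* exceeded *Perp* in 1 of 4 control and 3 of 4 mutant libraries, and *Perp* exceeded *Cd24a* in 2 of 4 of each. The difference between genotypes in these 4 ratios had an exact permutation p of 0.0286 for *Krt17* with *Krt14*, 0.0571 for *Epcam* with *Cdh1*, 0.0857 for *Perp* with *Krt5* and 0.429 for *Cd24a* with *Perp*. The adjusted p over the 36 ratios between members were 0.114, 0.158, 0.171 and 0.617. The median RPKM of *Krt14* was 95.3 in control libraries and 195 in mutant libraries, and that of *Krt17* was 67.0 and 198.

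Other genes of the epithelial programme shared the pattern of the members in part. Genes for basement membrane adhesion, which tie basal epithelial cells to their matrix, were all in the table, and the mean of all 8 was higher in mutant libraries, while 2 were altered. *Itga6*, the integrin alpha 6 chain of hemidesmosomes, had a log2 fold change of 1.00 ± 0.23 (SE), an adjusted p of 0.0724 and an exact permutation p of 0.0286. Its log2 CPM were 4.57, 4.17, 4.41 and 4.62 in control libraries and 4.94, 5.27, 5.39 and 6.16 in mutant libraries, without overlap, and *Itga6* also occurs on endothelial and other cells. *Col17a1*, the transmembrane collagen of hemidesmosomes, had 1.15 ± 0.43 (SE), an adjusted p of 0.377 and an exact permutation p of 0.0857. Both remained altered without library 56. *Lamb3*, the laminin beta 3 chain and the most abundant of the list, had a log2 fold change of 1.04 and was not altered, with 0.21 without library 56.

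Of 20 epithelial junction genes 9 were in the table, and 4 were altered, all higher: the desmosomal genes *Dsp* and *Dsc3*, P-cadherin (*Cdh3*) and claudin 1 (*Cldn1*), with log2 fold changes of 1.06, 1.39, 1.23 and 2.05. None of these 4 remained altered without library 56, where they had 0.57, 0.74, 0.62 and 0.96, and there the desmosomal plaque gene *Pkp1* was altered in the other direction at -0.70. The most abundant of the list, *Cldn10* and *Jup*, had log2 fold changes of 0.05 and -0.05, and both are made outside epithelium too. Of 20 epithelial transcription and splicing factors 6 were in the table, and the mean of all 6 was higher in mutant libraries, while 1 was altered with all libraries and 0 without library 56. *Klf5*, a factor of basal epithelial cells, had a log2 fold change of 0.36 (-0.17 without library 56), and *Grhl1*, a regulator of desmosomal genes, had 0.48, and neither was altered. Of 10 protease inhibitors and trafficking genes 6 were in the table and *Spint2*, an inhibitor of epithelial serine proteases, was altered, with a log2 fold change of 0.67 and an adjusted p of 0.517. It was 0.34 and no longer altered without library 56. *Spint1* and *St14* had 0.17 and -0.11.

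Of 15 other epithelial keratins 4 were in the table, and none was altered and higher with all libraries. *Krt10* and *Krt18* had log2 fold changes of 0.07 and 0.51 and *Krt8* had -0.27, and none of them was altered with all libraries. Without library 56 *Krt18*, a keratin of simple epithelia, was altered and higher at 0.80. *Krt80*, with 8 to 215 reads per library, was altered and lower, with a log2 fold change of -1.62 and an adjusted p of 0.485, and it was at -2.43 without library 56. Its log2 CPM were 2.55, 3.20, 3.97 and 2.98 in control libraries and -0.06, 0.59, 1.71 and 3.99 in mutant libraries. The mutant libraries of *Krt80* were thus in the order seen in most members, with library 56 the highest of the 8, but only library 56 lay above the lowest control. Of 14 genes of the stratified oral mucosa 2 were in the table, *Krt10* and *Sbsn*, with log2 fold changes of 0.07 and 0.06, and the defining mucosal keratins *Krt4*, *Krt13* and *Krt76* and loricrin were not among the genes analysed.

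Genes of secretory ameloblasts were high in some of the same libraries but not in step with the members. In all, 11 of 14 listed genes were in the table. *Amelx* and *Ambn* together took 0.326% to 2.14% of reads in control libraries and 0.437%, 0.347%, 2.74% and 18.5% in libraries 53 to 56. The control library 49 had log2 CPM of 13.54 for *Amelx*, close to the 13.88 of library 55, yet its *Krt14* was 7.64 against 8.95 in library 55. The log2 ratio of *Amelx* to *Krt14* was 5.90 in library 49 and 5.85 in library 56 and lay between 2.71 and 4.93 in the others. *Ambn*, *Amelx* and *Mmp20* had genotype log2 fold changes of 1.46, 1.39 and -0.38 and were not altered. Without library 56 *Ambn* and *Amelx* had 0.32 and 0.20, and *Mmp20*, an enamel protease, was altered and lower at -0.68. *Klk4*, a protease of maturing enamel that odontoblasts make as well, fell by 2.71 on the log2 scale with an adjusted p of 0.000136, and it fell in libraries 55 and 56 also, where the members were high.

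**Figure D4:**
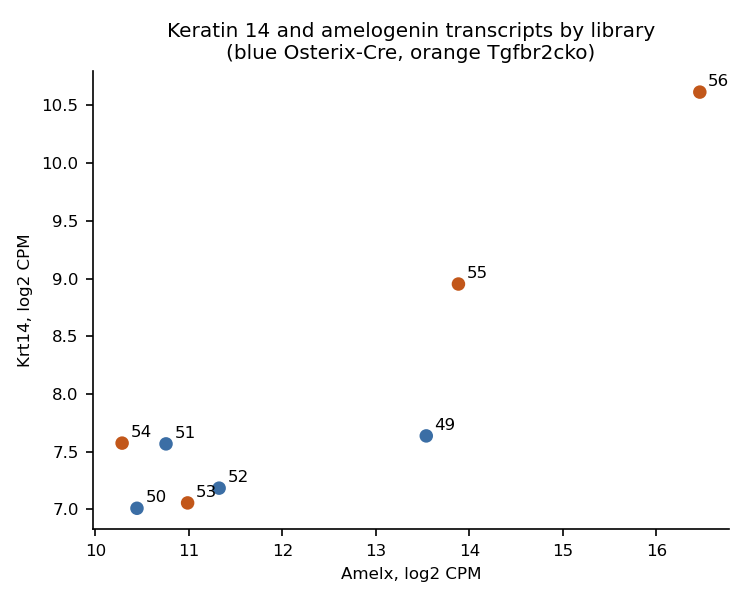
*Krt14* (vertical axis) against *Amelx* (horizontal axis), both in log2 CPM, for each library by number, with Osterix-Cre in blue and *Tgfbr2cko* in orange. Libraries 55 and 56 are high for both genes, and library 49 is high for *Amelx* while its *Krt14*, the highest of the controls, is far below that of 55 and 56.

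Markers of other cell types were compared in the same way, and their part in the levels of the members was not tested. All 5 erythroid genes in the table, of 8 listed, were highest in library 56, by a median log2 excess of 1.91 over the other 7 libraries, and none was altered between genotypes (*Hba-a1* -0.10, *Hbb-bs* 0.35). Without library 56 *Hba-a2* was altered and lower at -0.98. Their summed level was 655 to 1496 CPM in control libraries and 565 to 2541 CPM in mutant libraries. The 7 endothelial genes were all at a lower mean in mutant libraries, with 1 altered, *Tek* at -0.64 with an adjusted p of 0.124, and summed levels of 331 to 423 CPM and 278 to 358 CPM. *Egfl7* (-0.28) and *Kdr* (-0.24), the most abundant, were not altered. Of the 11 genes of pulp mesenchyme *Col1a2* (-1.22) and *Pdgfrb* (-0.69) were altered and *Col1a1* (-0.86), *Col3a1* (0.08), *Vim* (-0.04) and *Lum* (0.02) were not. The mean of 6 of the 11 was higher in mutant libraries, and their median log2 fold change was 0.02. Without library 56 *Pdgfrb* (-0.48) was no longer altered and *Dcn* was altered and higher at 0.65. Of 8 odontoblast genes *Bglap* (-0.72) and *Nes* (-0.81) were altered lower, *Ibsp* (1.24) was altered higher, and *Sparc* (-0.13) and *Dspp* (-0.71) were not altered. Without library 56 *Bglap* (-0.56) was no longer altered. In library 56 the median difference from the other 7 was -0.50 for the mesenchymal and -0.79 for the odontoblast genes, against 2.95 for the members and -0.27 for all genes. CPM are scaled to the library total, of which *Amelx* and *Ambn* took 18.5% in library 56. The part of that share in these differences was not tested. Of the Schwann cell genes *Mbp* had 0.57 and was not altered. Of the B cell and granulocyte genes *Cd79b* (-0.69, not altered) and *S100a8* (-1.75, altered) were in the table. *Tgfbr1* and *Tgfbr3* had log2 fold changes of 0.53 and -0.02.

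**Figure D5:**
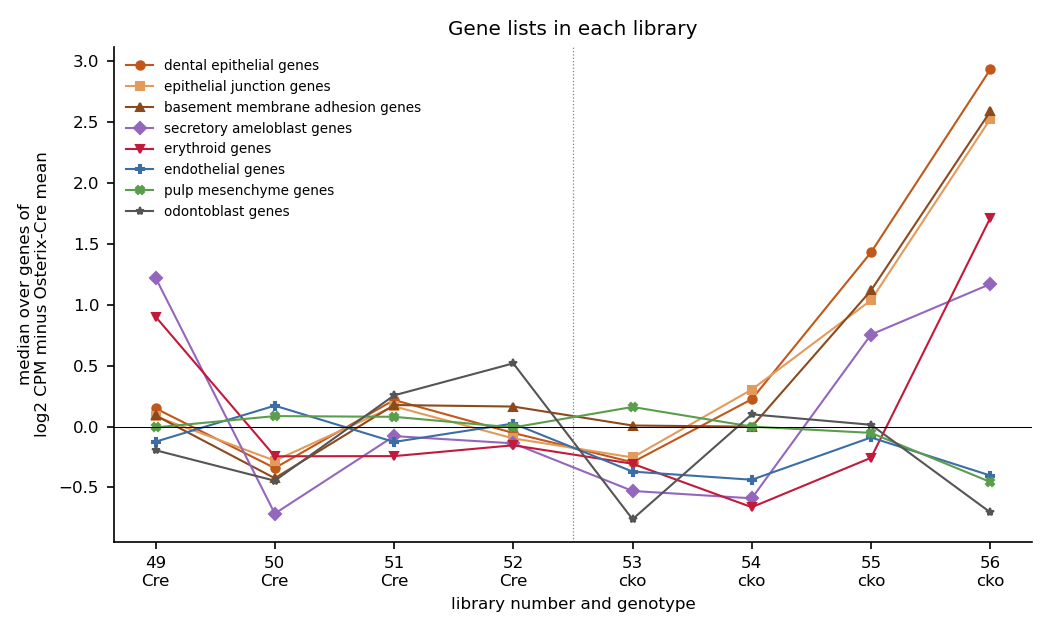
Median over the genes of a list of log2 CPM minus the gene's Osterix-Cre mean (vertical axis), by library number and genotype (horizontal axis); lines only join the points of a list. The lists of dental epithelial, epithelial junction and basement membrane adhesion genes lie between -0.42 and 0.30 in libraries 49 to 54 and between 1.04 and 2.93 in 55 and 56. Of the epithelial lists not drawn, the other keratins are at -0.19 and -0.17 in 55 and 56, and the stratified mucosa at 0.05 and -0.41. The transcription and splicing factors are there at 1.00 and 2.13, and the protease inhibitors and trafficking genes at 0.86 and 1.58. The ameloblast list is at 1.22 in library 49, 0.76 in 55 and 1.17 in 56, and the erythroid list at 0.90 in 49 and 1.71 in 56. The mesenchymal list is at -0.46 in 56. The odontoblast list is at -0.45, -0.76 and -0.70 in 50, 53 and 56 and at 0.26 and 0.52 in 51 and 52.

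Outside all lists, genes were ordered by how like their rank over the 8 libraries was to that of the mean log2 level of the members. Of the 13 with a Spearman's rho of at least 0.952, the 10 given here were first by rho and, among ties, by Pearson's r. Spearman's rho was 0.976 for *Kdf1*, *Dhx32*, *Slc39a8*, *Wnt7a*, *Lrrk2* and *Ascl5* and 0.952 for *Tnfrsf19*, *2010111I01Rik*, *Gm14296* and *Adgrf4*. *Kdf1* is a regulator of keratinocyte differentiation, *Wnt7a* a Wnt ligand and *Ascl5* a transcription factor of the ameloblast lineage. *Kdf1* had log2 CPM of 1.68, 1.46, 2.32 and 1.75 in control libraries and 0.98, 1.92, 2.89 and 4.45 in mutant libraries. With libraries 55 and 56 left out, Pearson's r with the members' mean ran from 0.787 for *2010111I01Rik* to 0.956 for *Kdf1* among these 10 genes, which were chosen for their likeness. The libraries share their depth and composition across genes, so these likenesses are a description.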

How the data were processed

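The deposited table holds log2 CPM values that the authors made: reads were aligned with HISAT2 2.1.0 to GRCm38.p5 and counted with featureCounts of Subread 2.0.1 (versions from the submitters' processing notes), against GENCODE M14, genes were kept by the CLEAR workflow, and counts were transformed with voom. With 0.5 added to each count, all 97184 values gave whole reads, to within 3.61e-08 of a whole number. Only genes that passed the authors' filter are in the table, so a gene outside it was not analysed here. Symbols, positions and exon lengths came from GENCODE M21 by Ensembl identifier (12144 matched, 4 did not).

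The genotypes were compared on the deposited log2 values with limma 3.58.1 in R 4.3.3, a two-sided moderated test with intensity trend and Benjamini-Hochberg adjustment over all 12148 genes. Exact permutation tests (70 arrangements, two-sided) used scipy 1.17.1, and figures matplotlib 3.10.9. The fit was tested on simulated data. Alternatives were no intensity trend, library weights, voom weights on the recovered reads, quantile normalization, median centring, a mean log2 value of at least 3, averaging libraries of a genotype that share a title number (3 against 2), other thresholds, and leaving out each library.

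The members, gene lists and tests were chosen with earlier results of these data known. All members are named, as are from each list the 2 to 4 most abundant genes and those altered. Genes of like pattern are the first 10 outside all lists by rho, with ties broken by Pearson's r. The ratios between members were chosen after the data were seen. Some genes named by this rule are not reported here; every fit and list count includes them.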

Additional observations from a re-analysis of the deposited data

Results flagged for a closer look

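*Cd24a* in library 56 was the value singled out among the members. At a log2 CPM of 8.93 it lay so far above the other 3 *Tgfbr2cko* libraries that its gap to the nearest of them was 0.863 of the range of the group, above Dixon's critical value for 4 samples. Of the 20 groups examined in this way 1 was singled out, and chance singles out about 1 in 20. Without library 56, *Cd24a* remained higher in the mutants (log2 fold change of 0.64 with a limma-trend adjusted p of 0.330).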

How the results depend on the processing

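The number of members altered was 3. It was 5 with library weights and 6 with title numbers averaged, 2 without the intensity trend, with voom weights, with quantile normalization and with median centring, and 0 at an adjusted p under 0.05. In these fits 5.56% to 6.41% of all genes were altered. Averaging by title number joined libraries 49 and 50, 54 and 55, and 53 and 56, which had the lowest and the highest mean of the members. That left 2 mutant values without the spread between the libraries joined, so its 6 calls are not separate support. The number of members altered ran from 2 to 7 in the 8 fits that left out 1 library. It was 7 without library 53, 6 without library 54 and 2 without library 56, where 7.80%, 6.34% and 5.30% of all genes were altered. The median log2 fold change of the members was between 0.51 and 1.58 in those fits and kept its direction. *Krt17* and *Cd24a* kept direction and call in each of their 15 alternatives. *Cdh1* lost its call in 9 of 15, namely without the intensity trend, with voom weights, with quantile normalization, with median centring and in 5 of the 8 fits without 1 library. *Krt5* and *Krt14* gained a call in 4 alternatives each, with library weights, with title numbers averaged and without library 53 or 54, *Trp63* in 3 of these and *Perp* in 1. In the fits without 1 library the log2 fold change ran from -0.81 to 0.27 for *Epcam* and from -0.57 to 0.062 for *Sp6*, both turning without library 53, and from -0.026 to 1.07 for *Perp*, which turned without library 56. The cause of these shifts was not tested. The difference in the ratio of *Krt17* to *Krt14* ran from 0.42 to 0.51 without 1 library, where 3 against 4 libraries cannot give an exact p under 0.0571. With title numbers averaged the difference was 0.51 and the exact permutation p was 0.2, where 3 against 2 values allow few arrangements. Depth limits *Sp6* and *Epcam* most, with as few as 25 and 22 reads. No paired analysis was possible because the genotypes share no library number and only 1 title number, 2, which 1 control and 2 mutant libraries carry.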
